A study of Homo sapiens with 6 samples.

Results

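The RUNX family genes RUNX1, RUNX2 and RUNX3, and CBFB, were examined in ATAC-seq libraries of HLF, a long-established line of human liver cancer cells. ATAC-seq uses the Tn5 transposase to cut and tag DNA that is open to it, and a peak marks a position where tagged fragments pile up. Cells received DMSO, the vehicle, or 5 µM SNDX-5613 (revumenib), a small molecule that keeps menin from binding MLL1, with 3 libraries in each group. The labels give 24 h of treatment and the study's methods give a longer one, so the duration behind these libraries is uncertain. All 6 libraries carry 1 batch in the labels and come from 1 unmodified cell line. The study's methods describe a replicate as 1 dish whose cells were divided between vehicle and inhibitor, without saying which libraries came from which dish. Of 4 hepatocyte markers, ALB, APOA1 and HNF4A had no promoter peak in any library and TTR had one in 5 of 6 libraries. The mesenchymal markers VIM, ZEB1 and FN1 each had one in all 6 libraries, while the blood cell markers given here, PTPRC and CD3E, had none.

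A peak was assigned to a gene if it lay within 1 kb of any of its annotated transcription start sites, in the gene body or within 50 kb of it. Peaks of the 6 libraries that overlapped were merged into sites, and 148 of 166021 sites in the genome met this rule. They comprised 90 sites at RUNX1, 14 at RUNX2, 26 at RUNX3 and 18 at CBFB. RUNX3 was also chosen on measured values, because its promoter lay among the 40568 strongest regions in every SNDX-5613 library and in 1 DMSO library. Its promoter levels are therefore described without a test. The number 40568 is the full length of the SNDX-5613 replicate 3 list, so any peak called in that library met the limit.

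RUNX proteins are transcription factors that bind DNA through the Runt domain, at sites with the core TGTGGT. CBFB encodes their common partner, which does not contact DNA itself and strengthens RUNX binding. RUNX1 is known for its role in blood cell formation, RUNX2 for bone formation, and RUNX3 for T cell and sensory neuron development, and each is transcribed from a distal promoter, P1, and a proximal promoter, P2, which give proteins with different N termini.

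The proximal promoters are shown first because a peak covered each of them in at least 5 libraries, with CCAAT boxes (CCAAT, the core bound by NF-Y) and RUNX cores (TGTGGT) in capitals on either strand. Each sequence is the 250 bases before the start in RefSeq (GRCh38.p14), written 5′ to 3′ along the gene.
RUNX3 P2, minus strand of chr1:24930277-24930526: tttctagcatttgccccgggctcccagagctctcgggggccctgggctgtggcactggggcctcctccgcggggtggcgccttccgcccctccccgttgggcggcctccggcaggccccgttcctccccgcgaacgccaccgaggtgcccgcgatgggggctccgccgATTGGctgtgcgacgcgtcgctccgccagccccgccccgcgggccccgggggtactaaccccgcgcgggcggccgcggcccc
RUNX1 P2, minus strand of chr21:34888700-34888949: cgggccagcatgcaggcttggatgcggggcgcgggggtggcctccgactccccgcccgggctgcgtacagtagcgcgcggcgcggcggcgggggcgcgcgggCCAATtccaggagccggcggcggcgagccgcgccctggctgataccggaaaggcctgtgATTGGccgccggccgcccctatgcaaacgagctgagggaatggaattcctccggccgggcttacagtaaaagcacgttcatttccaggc
RUNX2 P2, plus strand of chr6:45422025-45422274: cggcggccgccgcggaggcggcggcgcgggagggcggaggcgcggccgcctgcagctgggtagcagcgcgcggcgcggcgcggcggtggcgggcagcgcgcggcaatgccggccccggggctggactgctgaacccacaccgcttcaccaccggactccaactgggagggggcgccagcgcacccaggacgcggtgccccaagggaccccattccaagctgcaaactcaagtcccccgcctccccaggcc

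The RUNX3 P2 sequence held 1 CCAAT box, 82 bases before the start and on the opposite strand, and no TGTGGT. RUNX1 P2 held 2 CCAAT boxes, 148 and 89 bases before the start, and RUNX2 P2 held neither motif. Across 35116 promoters of this length, 32.0% had at least 1 CCAAT box, 9.53% had 2 or more, and 11.0% had a TGTGGT on either strand. The 3 P2 sequences had a GC content of 78.4% at RUNX3, 71.2% at RUNX1 and 78% at RUNX2.

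The distal promoters of RUNX2 and RUNX3 are shown for contrast, because almost no peak was called there.
RUNX3 P1, minus strand of chr1:24965011-24965260: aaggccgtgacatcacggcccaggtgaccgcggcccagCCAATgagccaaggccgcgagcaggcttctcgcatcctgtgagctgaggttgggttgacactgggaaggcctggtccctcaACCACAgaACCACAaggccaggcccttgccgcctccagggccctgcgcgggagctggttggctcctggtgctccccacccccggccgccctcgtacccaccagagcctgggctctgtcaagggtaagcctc
RUNX2 P1, plus strand of chr6:45328080-45328329: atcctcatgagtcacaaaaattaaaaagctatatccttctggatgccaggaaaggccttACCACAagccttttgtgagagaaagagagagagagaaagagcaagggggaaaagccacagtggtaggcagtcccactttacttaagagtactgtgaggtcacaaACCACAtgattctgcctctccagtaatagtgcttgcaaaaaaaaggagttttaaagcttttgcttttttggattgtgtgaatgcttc

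Both distal sequences carried 2 RUNX cores, at 131 and 123 bases before the start in RUNX3 and at 191 and 87 bases in RUNX2, which 0.971% of promoters did. RUNX3 P1 also had a CCAAT box 212 bases before its start. A match of this kind describes the letters only.

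The libraries differed in depth. The genome-wide background of each peak list, a relative measure of depth recovered from its fold and p values, was 0.997 to 1.51 in 5 libraries and 0.211 in SNDX-5613 replicate 3, which was 16.2% of the median of the others. Member sites with a peak numbered 80, 103 and 84 under DMSO, and 96, 76 and 30 under SNDX-5613, by replicate number. Of the 148 sites, 26 were present in all 6 libraries, 28 were present in the 5 deeper libraries and missing from SNDX-5613 replicate 3, and 49 were seen in 1 library. The same classes made up 20.1%, 16.0% and 36.2% of all sites. Whether SNDX-5613 replicate 3 was sequenced less or also differed in quality was not tested.

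By position, 14 member sites were promoters, 98 lay in introns, 36 in the flanks and 0 in exons. RUNX1 held the most sites and was annotated over 1217 kb, because several of its transcripts start far upstream of P1. Within its canonical transcript of 262 kb there were 29 sites. RUNX3 had the highest density, 15.7 sites per 100 kb of gene and flanks, against 10.5 at CBFB, 6.83 at RUNX1 and 3.21 at RUNX2. These densities include sites seen in 1 library, which were 12 of 26 at RUNX3 and 7 of 18 at CBFB. Sites present in all 5 deeper libraries numbered 4 at RUNX3 and 7 at CBFB, genes of 65.6 and 72.1 kb. On those sites RUNX3 was not the densest. With a -log10 q of at least 3, 15 sites remained at RUNX3 and 14 at CBFB. At CBFB the DMSO libraries had peaks at 12, 12 and 11 sites and the SNDX-5613 libraries at 8, 8 and 5, so that these counts did not overlap. Of the 18 CBFB sites, 12 lay in the flanks. Over the genome the libraries had peaks at 84522, 109439 and 93782 sites under DMSO, and at 103800, 95063 and 38715 under SNDX-5613, which overlapped except for the low count of the shallow library. RUNX2 had the opposite order in the deeper libraries, with 7, 9 and 9 sites under DMSO, 13 and 10 in SNDX-5613 replicates 1 and 2, and 3 in the shallow replicate. At RUNX1 and RUNX3 the counts overlapped, with 11, 12 and 10 sites at RUNX3 under DMSO, and 16, 10 and 4 under SNDX-5613. Because members were found by the presence of peaks, these counts were not tested. The share of gene loci with counts apart in either direction was not determined. The order at CBFB or RUNX2 therefore cannot be called particular to its locus.

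**Figure D1:**
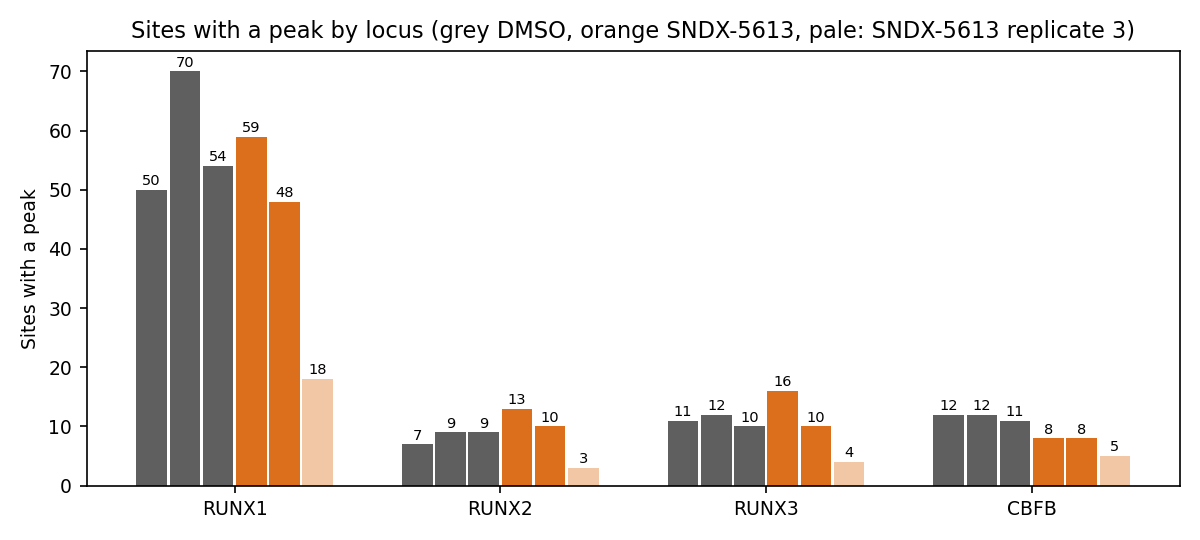
Number of sites with a peak at each locus (vertical axis) in the 3 DMSO (grey) and 3 SNDX-5613 (orange) libraries, left to right by replicate number, with the shallow SNDX-5613 replicate 3 in a pale tone. RUNX1 has the most sites in every library, and replicate 3 of SNDX-5613 the fewest at each locus.

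To compare levels, 2 scales were used. Within a library, a peak's own percentile is the rank of its -log10 p among all regions of that list, with 100 the strongest. Between libraries, the 33405 sites present in all 6 libraries were ranked by -log10 p in each library, which gives a rank percentile over the same set of sites. The pileup, the number of fragments stacked at a summit, was also recovered and divided by the library's median over these shared sites, which gives a relative pileup with a 95% Poisson interval that covers counting error only. A bulk library cannot tell apart more cells with an open site from more cuts per cell.

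The RUNX3 P2 site, chr1:24930256-24930627, spanned the proximal start, with its summit 93 to 127 bases upstream of it in all 6 libraries. Its rank percentile was 13.5, 14.3 and 19.1 with DMSO and 37.6, 53.5 and 46.3 with SNDX-5613. All 3 SNDX-5613 values lay above the highest DMSO value. The means were 15.6 ± 3.00 and 45.8 ± 7.92 (SD, n = 3 each), a shift of 30.2 percentile points.

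In the files' own units, the fold over local background at RUNX3 P2 was 6.70, 7.61 and 7.52 in DMSO and 9.85, 11.3 and 6.95 in SNDX-5613 libraries. On this scale the shallow library fell between the DMSO values, while replicates 1 and 2 of SNDX-5613 stood above all DMSO libraries. Its own percentile was 51.3, 63.5 and 62.9 in DMSO and 78.4, 83.4 and 54.9 in SNDX-5613 libraries, again with the shallow library among the DMSO values. An own percentile in a list of 40568 regions and one in a list of 88026 to 113675 are not ranks over the same sites.

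Pileups at RUNX3 P2 were 30, 39 and 43 in DMSO and 64, 82 and 13 in SNDX-5613 libraries, against library medians of 59, 74, 73, 69, 72 and 12 in the same order. The relative pileup under DMSO was 0.51 (95% interval 0.34 to 0.73), 0.53 (0.38 to 0.72) and 0.59 (0.43 to 0.79). With SNDX-5613 it was 0.93 (0.71 to 1.18), 1.14 (0.91 to 1.41) and 1.08 (0.58 to 1.85). The DMSO libraries were all below the median height of shared sites, which is 1 on this scale, and the SNDX-5613 libraries were close to it. The mean relative pileup was 0.54 ± 0.042 with DMSO and 1.05 ± 0.11 with SNDX-5613 (SD, n = 3 each), a ratio of 1.94, or 1.91 without SNDX-5613 replicate 3.

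The values that chose RUNX3 were ranks from the top of each list. The limit was rank 40568, the last rank in SNDX-5613 replicate 3. The P2 region stood at rank 42851 in DMSO replicate 1, 41524 in DMSO replicate 2 and 35759 in DMSO replicate 3, so that replicate 2 missed the limit by a small margin. In SNDX-5613 libraries it stood at 23159, 16055 and 18301. Of 20007 protein-coding genes, 144 (0.720%) had a promoter region among these top regions in all 3 SNDX-5613 and at most 1 DMSO library, and 61 (0.305%) showed the reverse.

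**Figure D2:**
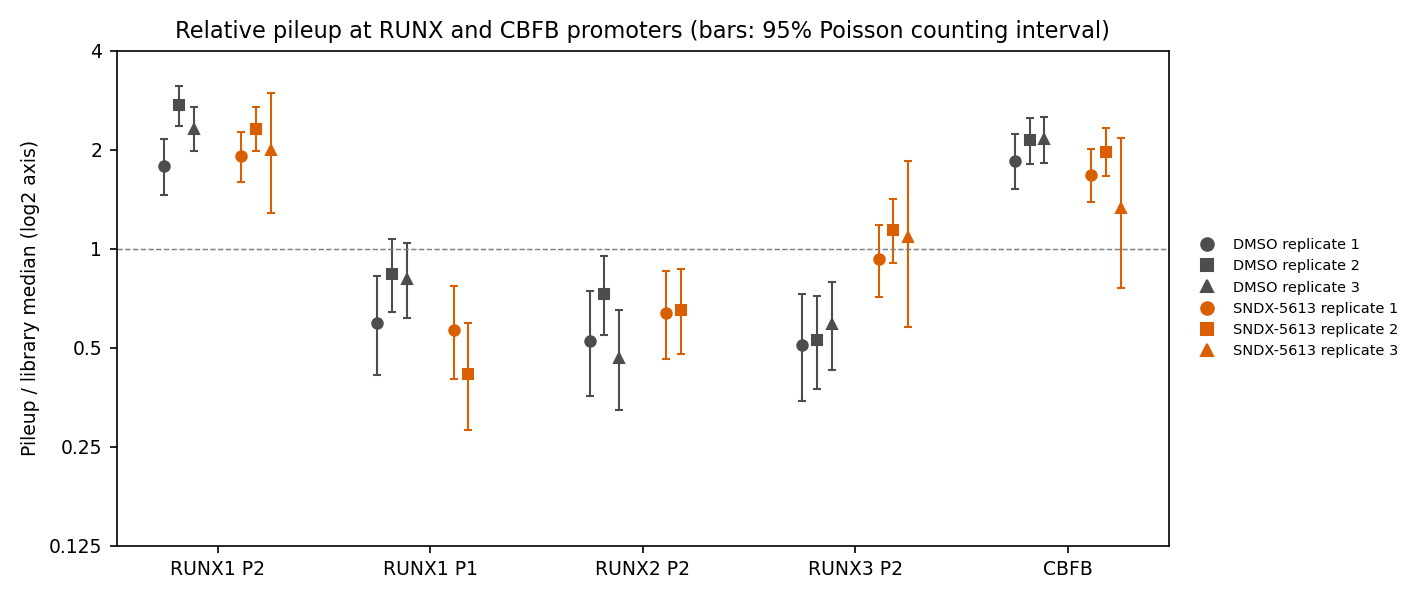
Relative pileup (pileup at the strongest summit over the library median at sites in all 6 libraries, log2 axis) at 5 promoters, with 1 point per library and 95% Poisson counting intervals; RUNX1 P1 and RUNX2 P2 had no peak in SNDX-5613 replicate 3. At RUNX3 P2 the DMSO libraries sit at 0.51 to 0.59 and the SNDX-5613 libraries at 0.93 to 1.14, while at RUNX1 P2 the groups overlap.

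The local background that the peak caller computes around a summit also differed near RUNX3 P2. Divided by the genome-wide background, it was 3.64, 3.26 and 3.35 in DMSO and 4.44, 4.19 and 4.81 in SNDX-5613 libraries at P2. At an intronic site 2221 bp upstream it was 3.40, 3.11 and 3.16 in DMSO and 4.22, 4.08 and 4.58 in SNDX-5613 libraries. All SNDX-5613 values were above all DMSO values at both sites, as at 13.0% of the shared sites with a recovered pileup, while 30.3% had the opposite order. The 2 windows overlap and hold the P2 peak, so this is no independent measure of it.

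That intronic site, chr1:24932343-24932650, lies between P1 and P2 and had a peak in every library. It is shown because it is the nearest constant peak to P2, as the 201 bases around its summit (hg38, plus strand), with neither motif present and so no capitals.
RUNX3 intron, chr1:24932324-24932524: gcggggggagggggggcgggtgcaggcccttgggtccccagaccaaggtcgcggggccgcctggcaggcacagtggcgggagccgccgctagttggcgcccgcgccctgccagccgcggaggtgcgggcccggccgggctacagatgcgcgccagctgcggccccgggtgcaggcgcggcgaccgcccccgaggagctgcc

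Its rank percentile was 25.5, 33.3 and 24.5 in DMSO and 20.2, 25.1 and 47.7 in SNDX-5613 libraries. The groups overlapped, and the highest value came from the shallow library, where the pileup was 13. Among the 5 deeper libraries the site ranked on average 4.17 points lower with SNDX-5613, whereas P2 ranked 31.4 points higher.

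The third RUNX3 site in all 6 libraries was chr1:24909538-24909823, an intron site 20595 bp downstream of the P2 start. Its rank percentile was 23.9, 27.5 and 25.7 in DMSO and 24.0, 21.6 and 37.5 in SNDX-5613 libraries, with overlapping groups. A flanking site beyond the 3′ end, chr1:24898077-24898495, was the strongest peak of the locus in 3 of the 5 deeper libraries, at own percentiles of 76.9 to 84.1, and had no peak in SNDX-5613 replicate 3. Its relative pileup was 1.02, 0.65 and 0.81 in DMSO and 0.80 and 0.89 in the deeper SNDX-5613 libraries, again overlapping.

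The other RUNX3 promoter sites were weak. A second site in the P2 window, chr1:24929715-24930006, centred 415 bp into the gene, had folds of 2.69 in DMSO replicate 2, 2.45 in SNDX-5613 replicate 1 and 2.77 in SNDX-5613 replicate 2, at own percentiles of 5.93, 5.50 and 14.4. P1 had a single peak, chr1:24965089-24965437, with a pileup of 10 in DMSO replicate 3 and none called elsewhere. A further site 982 bp upstream of P1, chr1:24966042-24966164, was called in DMSO replicate 1 alone, with a pileup of 7. So P1 had only low peaks in single DMSO libraries, and none was called there with SNDX-5613. A low peak in 1 library does not set the groups apart.

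Upstream of P1, the site chr1:24970369-24970708 was called in replicates 1 and 2 of each group, with folds of 3.15 and 2.96 under DMSO, against 7.42 and 4.49 under SNDX-5613. It lies at the start of an unnamed long noncoding RNA gene and had no peak in the other 2 libraries, and it belonged to the SNDX-5613 consensus set only. The counting intervals of the relative pileup in SNDX-5613 replicate 2, 0.13 to 0.36, and DMSO replicate 1, 0.037 to 0.22, overlapped.

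Of the remaining 18 RUNX3 sites, 4 lay in introns and 14 in the flanks. Their own percentiles ran from 0.24 to 47.9 and their pileups from 3 to 21. None was present in more than 4 libraries, and 10 were seen in 1 library. The widest of these differences in presence were sites in 2 DMSO libraries and no SNDX-5613 library, chr1:24862176-24862478 with pileups of 10 and 11 and chr1:24947367-24947612 with pileups of 7 and 8. At the edge of the 50 kb rule, the farthest site inside lay 49683 bp from the gene, with own percentiles of 17.8 and 34.9 in 2 libraries, and the nearest site outside lay 50790 bp away, at 2.08 in 1 library.

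**Figure D3:**
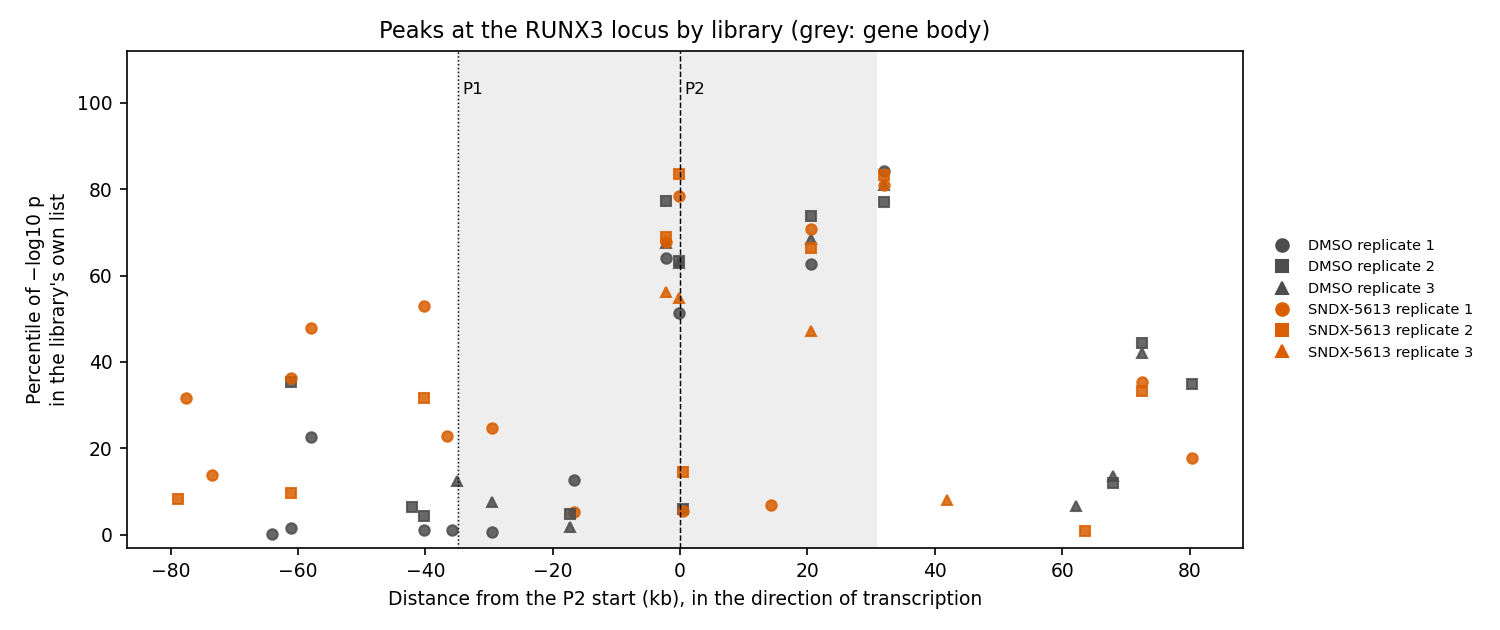
Peaks at the RUNX3 locus, with the distance of each site from the P2 start in kb (negative is upstream) against its percentile of -log10 p in the library's own list, 1 point per library and site. Sites in all libraries cluster at P2, 2221 bp upstream and 20595 bp downstream, the deeper SNDX-5613 libraries stand highest at P2, and P1 has 1 weak peak.

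The genes whose strongest promoter site was most like that of RUNX3 over the 6 rank percentiles were FGFR2 (Euclidean distance 11.7), PLCG2 (14.0), CXCL12 (14.3), GPR37 (14.6) and RASGEF1B (15.4). The median distance over 12735 genes was 129.9. FGFR2 had a mean rank percentile of 14.4 in DMSO and 51.2 in SNDX-5613 libraries, and PLCG2 had 9.47 and 41.7.

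RUNX1 had peaks at P2, at P1 and at its farthest upstream start. The main P2 site, chr21:34888062-34889326, had rank percentiles of 55.3, 76.7 and 69.1 in DMSO and 63.2, 72.9 and 64.6 in SNDX-5613 libraries. The groups overlapped throughout, and the means of 67.0 ± 10.8 and 66.9 ± 5.27 (SD, n = 3 each) differed by -0.086 points (two-sided exact permutation p = 1, adjusted p = 1 over 4 promoters). Its relative pileup, 1.78 to 2.73 in DMSO and 1.91 to 2.32 in SNDX-5613 libraries, was above that of RUNX3 P2 in every library.

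Just upstream, a second RUNX1 start was covered by chr21:34889567-34890326, with rank percentiles of 22.8, 27.1 and 42.0 in DMSO and 18.0, 40.1 and 38.8 in SNDX-5613 libraries. The difference of 1.66 points was smaller than the SD of either group (exact permutation p = 1, adjusted p = 1). The far upstream start was covered by chr21:36005077-36005499, which is also a promoter of the noncoding gene LINC01436. It was the strongest RUNX1 peak, at 91.0, 90.1 and 86.1 in DMSO and 92.5, 89.2 and 89.4 in SNDX-5613 libraries, and the difference of 1.29 points did not exceed the spread (exact permutation p = 0.6, adjusted p = 1). With 3 against 3 libraries the smallest possible p is 0.1. A neighbouring site at that start, chr21:36004496-36004730, was present in the 5 deeper libraries with folds of 3.71 to 5.69, and chr21:36003895-36003996 in DMSO replicate 1 only, with a fold of 2.72.

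The distal promoter RUNX1 P1, the start of the isoform that is typical of blood stem cells, had a peak at chr21:35049149-35049481 in the 5 deeper libraries. Its fold was 5.18, 7.53 and 6.42 under DMSO, and 5.23 and 3.53 in the deeper SNDX-5613 libraries. Its percentile among the 59986 sites shared by these libraries was 28.0, 48.7 and 47.0 in DMSO and 26.1 and 9.78 in SNDX-5613 libraries. Both SNDX-5613 values were below all DMSO values, if barely in replicate 1, and on the fold scale the groups overlapped. The mean difference was -23.3 points (exact permutation p = 0.2, adjusted p = 0.9 over 6 promoters, smallest possible p = 0.1). Both deeper SNDX-5613 ranks were below all DMSO ranks at 14.4% of sites.

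RUNX2 had no peak at P1 in any library. At P2 the site chr6:45421528-45422464 was present in the 5 deeper libraries, with folds of 6.59, 8.77 and 5.44 in DMSO and 7.21 and 6.42 in SNDX-5613 libraries. The SNDX-5613 values lay inside the DMSO range, and the percentile among sites of the 5 deeper libraries differed by 5.52 points (exact permutation p = 0.6, adjusted p = 0.9 over 6 promoters). A weaker neighbour, chr6:45422562-45423152, had folds of 2.83 to 3.71 in the same 5 libraries. Since neither site was called in SNDX-5613 replicate 3, no RUNX2 promoter could be compared over all 6 libraries.

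The CBFB promoter, chr16:67028577-67030003, had rank percentiles of 74.3, 77.7 and 79.3 in DMSO and 69.8, 79.0 and 59.3 in SNDX-5613 libraries. Replicates 1 and 3 of SNDX-5613 were below all DMSO libraries and replicate 2 was not. The means of 77.1 ± 2.54 and 69.3 ± 9.85 (SD, n = 3 each) differed by -7.79 points (exact permutation p = 0.3, adjusted p = 1 over 4 promoters), and by -1.55 points without the shallow library on the ranks of the 5 deeper libraries. A site at an internal CBFB start, chr16:67093479-67093627, was called in DMSO replicate 2 only, with a pileup of 11.

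Of the 4 genes, the order of mean rank percentile in DMSO among these main promoters was CBFB (77.1), RUNX1 P2 (67.0) and RUNX3 P2 (15.6). CBFB was above RUNX1 P2 within each DMSO library, if barely in replicate 2, although their values overlapped across libraries. RUNX3 P2 was below both in each DMSO library. In SNDX-5613 libraries the means were 69.3, 66.9 and 45.8, and RUNX3 P2 was still the lowest of the 3 in every library. This order holds for ranks by -log10 p. Ranked by fold over local background, the SNDX-5613 means were 63.7, 32.1 and 39.0, with RUNX1 P2 the lowest.

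Gained sites, called in every SNDX-5613 library and in no DMSO library, numbered 0 of 148, beside 0.147% of all sites. Lost sites, the opposite, numbered 2, beside 1.18% of all sites. One was the RUNX1 intron site chr21:34992785-34992973, with folds of 4.51, 5.21 and 4.09 and pileups of 8, 11 and 9. The other was the CBFB intron site chr16:67041661-67041827, with folds of 4.51, 6.07 and 6.95 and pileups of 8, 13 and 16. Both were low peaks, at own percentiles of 14.5 to 41.5. Without SNDX-5613 replicate 3 there were 2 gained sites, a RUNX1 intron site (chr21:35160022-35160183, pileups of 7 and 10) and a site at the CBFB flank (chr16:66988214-66988864, pileups of 20 and 13) that is a promoter of CES4A. Both of these gained sites also overlapped the deposited DMSO consensus set, so they cannot be called closed under vehicle. Leaving out DMSO replicate 1 or 3 gave 6 lost sites, and leaving out DMSO replicate 2 or SNDX-5613 replicate 1 gave 4. Leaving out a library loosens the rule for every site in the genome. The share of all sites under the looser rule was not determined, so these counts say nothing particular about the 4 loci.

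Among the 26 sites in all 6 libraries, 2 ranked higher in every SNDX-5613 library than in any DMSO library, beside 8.54% of all such sites, and 1 ranked lower, beside 8.08%. The median shift of the 26 sites was 0.13 points, against -0.093 over all 33405. RUNX3 P2 was 1 of the 2 higher sites. Without SNDX-5613 replicate 3, on the ranks of the 54 sites in the 5 deeper libraries, 4 were higher and 5 lower, beside 14.3% and 14.4% of all sites. Without DMSO replicate 2 there were 4 higher sites, and leaving out any one of the others gave 2 to 5 lower sites. Except without SNDX-5613 replicate 3, the share of all sites in these settings was not determined.

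**Figure D4:**
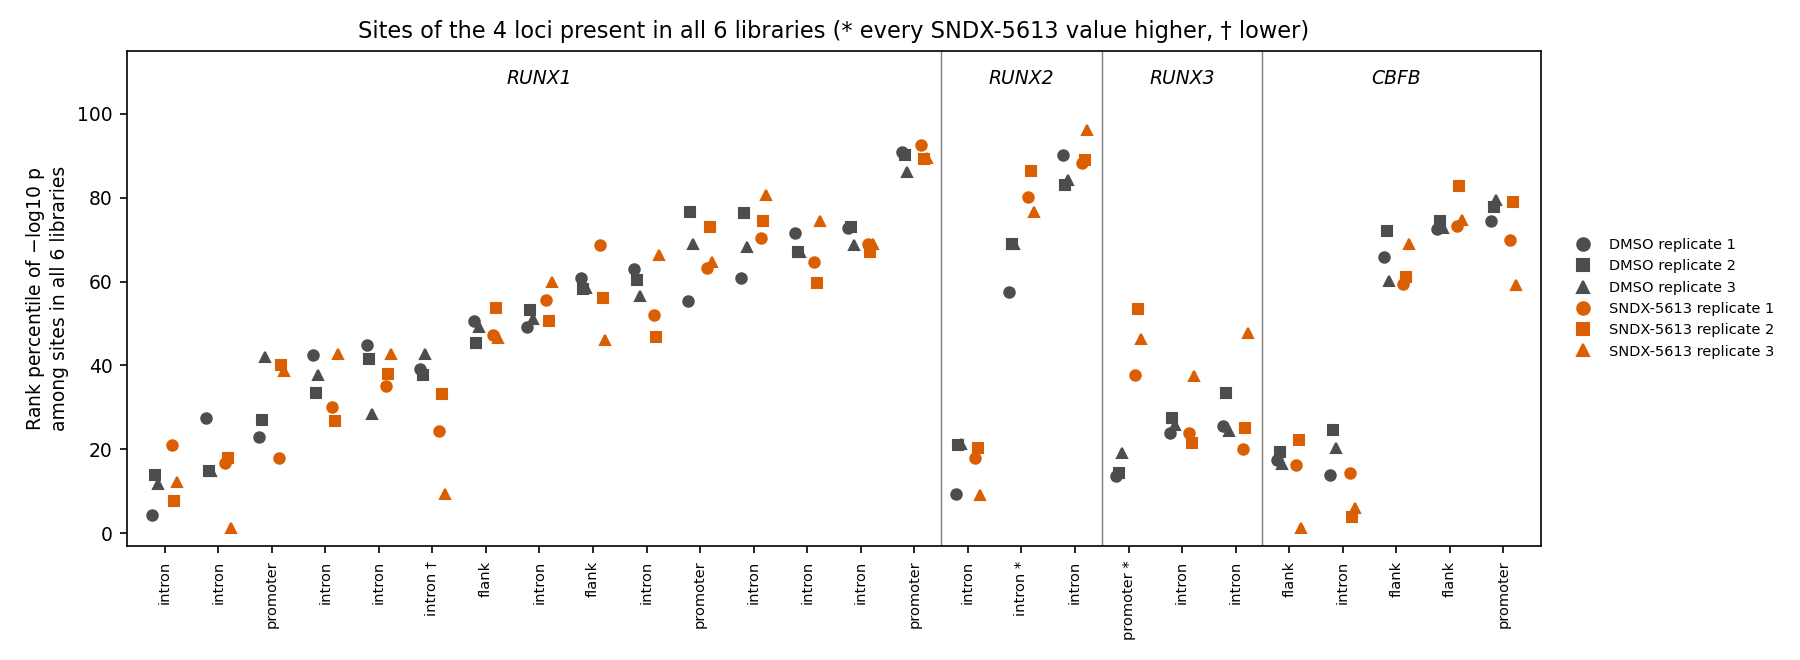
Rank percentile of -log10 p among the 33405 sites in all 6 libraries (vertical axis) for the 26 sites of the 4 loci, ordered within each gene by their DMSO mean, with 1 point per library. The groups overlap at 23 sites and are apart at RUNX3 P2 and 1 RUNX2 intron site (higher) and 1 RUNX1 intron site (lower).

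The second higher site was a RUNX2 intron site, chr6:45445791-45446374, 23506 bp from the nearest RUNX2 start. It is shown with the lower site because these are the distal elements whose groups were apart, each as the 201 bases around its strongest summit (hg38, plus strand), with CCAAT boxes on either strand in capitals.
RUNX2 intron, chr6:45445882-45446082: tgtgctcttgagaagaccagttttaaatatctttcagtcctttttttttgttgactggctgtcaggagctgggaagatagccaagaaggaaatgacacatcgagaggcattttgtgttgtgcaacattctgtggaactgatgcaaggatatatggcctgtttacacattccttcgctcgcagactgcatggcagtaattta
RUNX1 intron, chr21:35400505-35400705: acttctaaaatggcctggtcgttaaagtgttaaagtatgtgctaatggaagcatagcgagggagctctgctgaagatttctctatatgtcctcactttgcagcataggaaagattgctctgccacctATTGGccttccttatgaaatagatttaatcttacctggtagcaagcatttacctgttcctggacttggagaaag

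The RUNX2 intron site had rank percentiles of 57.5, 68.9 and 69.0 in DMSO and 80.2, 86.5 and 76.5 in SNDX-5613 libraries, a shift of 15.9 points. Its relative pileup was 1.10, 1.46 and 1.45 in DMSO and 1.81, 2.03 and 1.58 in SNDX-5613 libraries, so that these values did not overlap either, though the counting interval in the shallow library (0.95 to 2.47) spans the DMSO values. The RUNX1 intron site, chr21:35400523-35400928, lies 351424 bp upstream of P1. Its rank percentile was 39.2, 37.7 and 42.6 in DMSO and 24.4, 33.1 and 9.25 in SNDX-5613 libraries, a shift of -17.6 points, with a pileup of 4 in SNDX-5613 replicate 3. Without that library the shift was -9.25 points, on the ranks of the 5 deeper libraries, and the groups stayed apart.

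The strongest distal sites differed in kind between loci. At RUNX2 the site chr6:45377317-45378490, inside an intron, is a promoter of SUPT3H, a gene on the opposite strand, and had own percentiles of 94.5 to 96.8 in all 6 libraries. At CBFB the strongest was a flanking site, chr16:67109403-67110227, at a promoter of PHAF1, with own percentiles of 79.0 to 94.1. Neither belongs to a RUNX or CBFB start. The next CBFB sites were chr16:67017922-67018292, 10877 bp upstream of the nearest start, with rank percentiles of 60.2 to 72.0 in DMSO and 59.5 to 69.0 in SNDX-5613 libraries, and chr16:67104012-67104547 in the 3′ flank, in the 5 deeper libraries with folds of 13.6 to 17.6.

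The 3 distal RUNX1 sites with the highest minimum percentile all lay in introns. The site chr21:34807473-34808602 had rank percentiles of 60.9, 76.2 and 68.2 in DMSO and 70.4, 74.4 and 80.6 in SNDX-5613 libraries. The site chr21:35051190-35051754, 2170 bp upstream of P1, had 71.7, 67.1 and 67.0 in DMSO and 64.6, 59.6 and 74.3 in SNDX-5613 libraries. Both overlapped between groups, the site near P1 only through the shallow library. Among the 5 deeper libraries its mean percentile was 82.4 in DMSO and 78.6 in SNDX-5613, with the groups apart. Both deeper SNDX-5613 ranks were below all DMSO ranks at 14.4% of all such sites. The site chr21:35940258-35940612 was present in the 5 deeper libraries with folds of 18.5 to 24.6. The third distal RUNX2 site, chr6:45501048-45501220, had folds of 9.16 to 14.0 in the same libraries.

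Among the 40568 strongest regions of each library, the 4 loci held 34, 36 and 38 sites in DMSO and 37, 35 and 30 in SNDX-5613 libraries. The list of SNDX-5613 replicate 3 ends at 40568 regions, so its 30 sites are all of its member sites. The means of 36 ± 2 and 34 ± 3.61 (SD, n = 3 each) differed by -2 sites (exact permutation p = 0.6). In the deposited consensus sets, 93 of the 148 sites were in the DMSO set and 89 in the SNDX-5613 set, with 12 and 8 in 1 set alone, beside 6.16% and 5.85% of all sites. The sites in the DMSO set alone numbered 8 at RUNX1, 0 at RUNX2, 1 at RUNX3 and 3 at CBFB. Those in the SNDX-5613 set alone numbered 4, 2, 2 and 0 in the same order.

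Short motifs were counted within 100 bp of each site's strongest summit, on both strands. AP-1 motifs (TGANTCA) lay in 45 of 148 sites, 30.4% beside 15.5% of all sites, most often at RUNX1 (35.6% of 90 sites). The RUNX core TGTGGT itself lay in 14 sites, 9.46% beside 14.5%, with 7 of them at RUNX1, 3 at RUNX3, 4 at CBFB and 0 at RUNX2. CCAAT lay in 22.3% beside 24.3%. At RUNX3 the share was 34.6%, or 9 of 26 sites, of which only P2 was present in more than 4 libraries. TEAD motifs (CATTCC) lay in 18.9% beside 15.5%, and GATA motifs (AGATAA) in 8.78% beside 6.98%. The member sites were chosen by position, many adjoin each other, and no test was made of these shares.

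Genes that act with RUNX proteins were examined at their promoters. The list of cofactors and partners held 19 genes, among them the corepressors TLE1, TLE3 and TLE4, the coactivators EP300 and CREBBP, the partner ETS1, and MEN1 and KMT2A, which encode menin and MLL1. Of these, 14 had a promoter site in all 6 libraries, against 63.7% of 20007 protein-coding genes. In 0 of the 14 were the groups apart, beside 7.12% higher and 7.54% lower among all such genes, and the median shift was 3.12 points against -0.38 over all genes. MEN1, the gene of the inhibitor's target, had rank percentiles of 98.0 to 99.4 in DMSO and 98.9 to 99.8 in SNDX-5613 libraries. The 5 without a promoter site in every library were CBFA2T3 and TLE5, in 5 libraries each, FLI1, in 3, TLE2, in 2, and ERG, in 1.

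Of 15 genes widely described as RUNX targets, 6 had a promoter site in all 6 libraries, 3 in some and 6 in none. The promoters without a peak belonged to the bone and cartilage genes BGLAP, IBSP, MMP13 and COL10A1, to SPI1, a blood cell transcription factor, and to GZMB, a protease of cytotoxic T cells. CSF1R and ITGAL had one in the 5 libraries other than 1 SNDX-5613 library each, and CCND2 in 1 library. Groups were apart at 2 of the 6 promoters, both higher, beside 7.12% higher and 7.54% lower among all such protein-coding genes. The list was chosen with earlier results of these data known, and no test was made of this count. CDKN1A, a cell cycle inhibitor, had rank percentiles of 53.3, 50.7 and 54.2 in DMSO and 75.3, 68.0 and 84.4 in SNDX-5613 libraries, a shift of 23.1 points. SOX4, a transcription factor, had 38.4, 52.5 and 53.1 in DMSO and 59.5, 57.1 and 87.6 in SNDX-5613 libraries, a shift of 20.1 points, with its highest value in the shallow library. At SPP1, VEGFA, BCL2L11 and TIMP1 the groups overlapped, and the median shift of the 6 was 1.97 points, against -0.38 over all genes.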

How the data were processed

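HLF cells treated with DMSO or 5 µM SNDX-5613 were profiled by ATAC-seq, with 3 libraries per group. Per the labels the genome build was hg38, and the submitters' processing notes name Trim Galore 0.6.7, Bowtie2 2.3.4.1, Picard 2.20.0, SAMtools, deepTools 3.5.4 and MACS2. Per the study's methods duplicates were marked with Picard. Whether they were removed, and how mapping quality and the Tn5 offset were handled, is not given in the sources used here. How far such settings move the summits, and so the distances given here, was not determined. Read counts were not analysed here.

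Each deposited peak list gives the authors' fold enrichment ratio over local background, -log10 p, -log10 q and a summit score, which was not used. The deposited consensus sets were made by the authors from replicates with RMSPC, and their combined score was not used.

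Summits sharing a region were merged, keeping the strongest, on chromosomes 1 to 22, X and Y. Regions of the 6 libraries overlapping by 1 bp or more became sites, assigned with GENCODE release 44. Whole pileups were recovered from fold and p for 99.97% to 99.99% of summits tried (tolerance 0.001), against 0.55% to 0.78% with p shuffled. Promoter differences were tested by exact two-sided permutation of library labels, with Benjamini-Hochberg adjustment. Motifs were matched as plain letters. The same-numbered libraries did not deviate together (correlations of 0.031, 5.9e-05 and 0.018 over sites). The study's methods have each replicate as 1 dish divided between the treatments but do not tie dishes to library numbers, so the main test had no block and a replicate block was an alternative.

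The members, the gene lists and the naming rule were chosen with earlier results of these data known. The rule named every RUNX3 site. For the other genes it named promoter sites, gained or lost sites, sites whose groups were apart and the 3 distal sites with the highest minimum percentile. From the gene lists it named genes without a promoter site in every library and those whose groups were apart. Genes named beyond it serve as examples of a list, and the sites seen once a library was left out were named after their values were seen. Scripts were tested on simulated data with known answers. Python 3.11.15, NumPy 2.4.6, SciPy 1.17.1, pandas 2.3.3 and Matplotlib 3.10.9 were used. RefSeq sequences were found for 5 promoters of the RUNX genes and equalled hg38 at their coordinates.

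The alternatives were a -log10 q of at least 3, flanks of 10 kb, the canonical transcript as gene body, promoters within 3 kb, fixed windows of 250 bp around summits, presence by covering 50% of a site, equal numbers of top regions, ranks by fold or within each whole list, relative pileup, leaving out each library and a replicate block. A further blood cell marker on the marker list is not reported here.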

Additional observations from a re-analysis of the deposited data

How the results depend on the processing

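The alternatives reuse the values on which RUNX3 was chosen, so a kept direction is no independent support for its shift. The upward shift of RUNX3 P2 kept its direction under each alternative tried. It was 25.9 points with ranks by fold, 13.0 points within each whole list, 0.95 on the log2 scale of relative pileup, and 26.3 to 34.2 points when 1 library was left out. The number of sites was 86 in place of 148 with the canonical transcript as gene body (37 in place of 90 at RUNX1, 20 in place of 26 at RUNX3, 11 in place of 14 at RUNX2 and 18 at CBFB as before), and 134 to 146 when 1 library was left out. Gained sites ranged from 0 to 2 and lost sites from 2 to 6 over the left-out libraries, and there were 0 lost sites among equal numbers of top regions. Sites ranked higher numbered 0 within each whole list, where the shallow library's percentiles come from a shorter list, and 2 to 4 over the left-out libraries. Sites ranked lower numbered 0 with a -log10 q of at least 3, 2 within each whole list, 2 by relative pileup and 1 to 5 over the left-out libraries. The cause of these changes in the counts was not tested.

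None of the 4 tested promoter differences passed a threshold of 0.05, which this design cannot reach, so a change of sign among them carries no call. RUNX1 P2 changed sign with ranks by fold (8.58) and ran from -5.88 to 4.74 over the left-out libraries. The second RUNX1 start changed sign within each whole list (-7.11) and by relative pileup (-0.023, log2), and ran from -2.24 to 8.78. The far upstream start did so within each whole list (-1.21) and by relative pileup (-0.085, log2), and ran from -0.19 to 2.21. With ranks by fold its shift was 13.8 points, from a mean of 70.0 in DMSO to 83.9 in SNDX-5613 libraries. The unadjusted exact permutation p was 0.1 there, the smallest possible, so this shift depended on the scale. CBFB stayed negative, from -12.5 to -1.55. With the replicate block (sign flips of the 3 same-numbered differences, smallest p = 0.25) the exact p was 1 for RUNX1 P2, 1 for the second start, 0.5 for the far upstream start, 0.5 for CBFB and 0.75 for the top-region count of -2, and no call changed.

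Depth limits what the absence of a peak shows. In the shallow library a peak at the genome-wide background needed a pileup of at least 3, which is 14.2 times that background, against 4.60 to 6.02 times elsewhere.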
